A study of Mus musculus with 12 samples.

Results

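The genes of cholesterol and fatty acid synthesis, with the factors that control them, were followed across 4 groups of mouse cells on Illumina bead arrays. A list of 31 genes was used, and a listed gene's probe was kept if 3 or more of the 12 arrays detected it above their negative controls (detection p-value below 0.01). By this rule 26 genes of the list were measured through 38 probes, out of 10043 genes tested. Acat2, Hmgcs1, Ggps1, Fdft1 and Acaca were not analysed here. All 26 genes would have passed without the neural stem cells, since each had a probe detected on 3 or more arrays of the other groups.

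The groups held 3 samples each and all carried the strain label E14Tg2A, the name of a mouse embryonic stem cell line. They were induced pluripotent stem cells made with mouse Nanog (mNanog iPS), the same kind of cells made with human Nanog (hNanog iPS), embryonic stem cells (ES), and neural stem cells without a functional Nanog gene (NS). Nanog is a homeobox protein that helps hold cells in the pluripotent state. Culture of iPS and ES cells was in serum-free N2B27 medium with LIF, the GSK3 inhibitor CHIR99021 at 3 µM and the MEK inhibitor PD0325901 at 1 µM. No label gives the medium of the NS cells, so medium and cell type cannot be told apart in any comparison with NS. The labels name neither the construct that supplied Nanog nor the clone, so the form of Nanog and the clone cannot be told apart either. They also do not say whether replicates were separate cultures, so the p-values reflect no more than the spread among these samples, which may be technical.

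Cells make cholesterol from acetyl-CoA, first along the mevalonate steps to farnesyl pyrophosphate, then through squalene and lanosterol to cholesterol. The transcription factors SREBP1 and SREBP2, encoded by Srebf1 and Srebf2, switch on these enzymes and those of fatty acid synthesis. SREBPs are carried from the endoplasmic reticulum by Scap when sterols are low, and the Insig proteins hold Scap back when sterols are high. Neural cells depend on their own cholesterol synthesis, because lipoprotein cholesterol does not cross from blood into brain.

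Each array detected between 13654 and 16776 probes, at a mean signal between 317.5 and 561.9. The arrays fell into 6 brighter ones (mNanog iPS 3, hNanog iPS 1 and 2, ES 1, NS 1 and 3) and 6 dimmer ones, so every group held both kinds. All 8 markers of pluripotent cells were detected on all 3 arrays of both iPS groups and of ES, and all 8 neural stem cell markers on all 3 NS arrays. In NS, 3 of the 8 pluripotent markers were detected, with Pou5f1 not detected on any NS array. Of 6 fibroblast markers, 3 had probes. Their summed log2 intensity was 19.56 to 20.98 in mNanog iPS and 13.46 to 15.19 in the other groups, and Col1a1 was detected on 3 mNanog iPS arrays and on none of the other 9. The part of such cells in the mNanog iPS values below was not tested.

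RefSeq promoter windows (mouse build GRCm38.p6, 250 bases before to 50 bases after a start site) were found for 21 of the 26 genes, 29 windows in all. Fdps, Sqle, Stard4, Scd1 and Scd2 had none. The CCAAT box, a motif bound by the factor NF-Y, is known beside SREBP sites in sterol genes. CCAAT was present on either strand in at least 1 window of 19 of the 21 genes (90.5%), against 43.8% of the 8141 tested genes that had a window. Counted by window, the shares were 69% of the 29 and 38.2% of 10459. The GC box GGGCGG was present in 18 of the 21 genes (85.7%) against 70.3% of tested genes, and the E-box CACGTG in 5 (23.8%) against 12.1%. The sterol element core CACNCCAC was found in the window of Insig1 alone among the 21 genes (4.76%), against 7.75% of tested genes, and its longer form TCACNCCAC in none, against 1.4%. Every match of the longer form also contains the core. The motifs were chosen with the array results known, and a match describes letters in the window and does not show that a factor binds there. The 250 bases before the start site are shown for 3 enzyme genes with some of the largest differences from NS, for the regulator Insig1, and for Ebp, whose difference ran the other way. Capitals mark CCAAT, or ATTGG where it lies on the other strand.
Mvk, chr5:114444019-114444268, plus strand: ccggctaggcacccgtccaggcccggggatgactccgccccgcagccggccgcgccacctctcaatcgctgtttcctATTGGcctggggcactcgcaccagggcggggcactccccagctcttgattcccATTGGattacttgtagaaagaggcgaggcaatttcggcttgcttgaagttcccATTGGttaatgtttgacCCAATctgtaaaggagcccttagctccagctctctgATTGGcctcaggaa
Hsd17b7, chr1:169969206-169969455, minus strand: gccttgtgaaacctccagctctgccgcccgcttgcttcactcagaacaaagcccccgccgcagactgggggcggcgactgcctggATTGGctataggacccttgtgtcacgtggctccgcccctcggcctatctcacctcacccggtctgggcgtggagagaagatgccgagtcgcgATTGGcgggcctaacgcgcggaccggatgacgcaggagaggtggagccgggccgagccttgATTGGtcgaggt
Sc5d, chr9:42264301-42264550, minus strand: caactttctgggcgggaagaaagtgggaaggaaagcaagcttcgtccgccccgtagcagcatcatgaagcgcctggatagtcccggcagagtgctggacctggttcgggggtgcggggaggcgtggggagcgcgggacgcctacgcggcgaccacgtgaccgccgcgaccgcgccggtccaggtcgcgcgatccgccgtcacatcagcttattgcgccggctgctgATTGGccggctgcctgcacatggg
Insig1, chr5:28071162-28071411, plus strand: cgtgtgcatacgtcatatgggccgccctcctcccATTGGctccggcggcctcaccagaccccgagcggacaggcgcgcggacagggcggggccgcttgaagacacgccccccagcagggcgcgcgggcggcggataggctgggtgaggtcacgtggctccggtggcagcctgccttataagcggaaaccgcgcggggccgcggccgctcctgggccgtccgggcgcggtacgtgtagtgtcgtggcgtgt
Ebp, chrX:8193513-8193762, minus strand: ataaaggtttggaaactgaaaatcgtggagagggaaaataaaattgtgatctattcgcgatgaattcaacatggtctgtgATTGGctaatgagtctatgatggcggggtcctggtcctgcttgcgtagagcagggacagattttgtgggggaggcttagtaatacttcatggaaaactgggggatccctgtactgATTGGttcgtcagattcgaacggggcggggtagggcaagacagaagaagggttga
The Mvk window held 5 CCAAT boxes, Hsd17b7 held 3, Ebp 2, and Sc5d and Insig1 1 each. Ebp, which was higher outside NS, held the motif, as did Mvk and Hsd17b7, which were lower. Elovl6, the other gene higher outside NS, and Scap, which was lower, had no CCAAT in any window. A link between the motif and the direction of change was not tested.

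Most of the genes were lower in each kind of pluripotent cell than in NS. A gene was called where the adjusted p (limma, Benjamini-Hochberg over all 18185 probes) was under 0.05, and each gene was read from its brightest probe. In mNanog iPS, 21 of the 26 genes were lower than in NS and 2 were higher, against backgrounds over all genes tested of 38.3% lower and 39.3% higher. In hNanog iPS, 19 were lower and 2 higher (backgrounds 37.3% and 40.7%). In ES, 22 were lower and 2 higher (backgrounds 36.9% and 40.7%). The median log2 difference from NS was -1.29 in mNanog iPS, -0.91 in hNanog iPS and -1.21 in ES, where the median of all genes lay at 0.05, 0.08 and 0.08. The 3 comparisons share the NS samples. In all 3 comparisons 19 of the 26 genes were lower without overlap with NS, against a background of 31.3% of genes tested. Insig1 is among the 19 by its brightest probe, and its probes disagree. Hsd17b7, Srebf2 and Fdps are also among them, and another probe of each was not called lower in at least 1 comparison. The dimmer Scap probe was called lower in all 3 but overlapped NS in hNanog iPS. In RNA from whole cultures, fewer cells of a type and less RNA per cell cannot be told apart. With array brightness as a block the counts were 21 lower and 2 higher for mNanog iPS, 19 and 2 in hNanog iPS, and 22 and 1 in ES. On the brighter arrays alone 21, 21 and 22 genes were lower, and on the dimmer arrays alone 20, 16 and 20, where a group with 1 array was assumed to vary like the others.

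**Figure D1:**
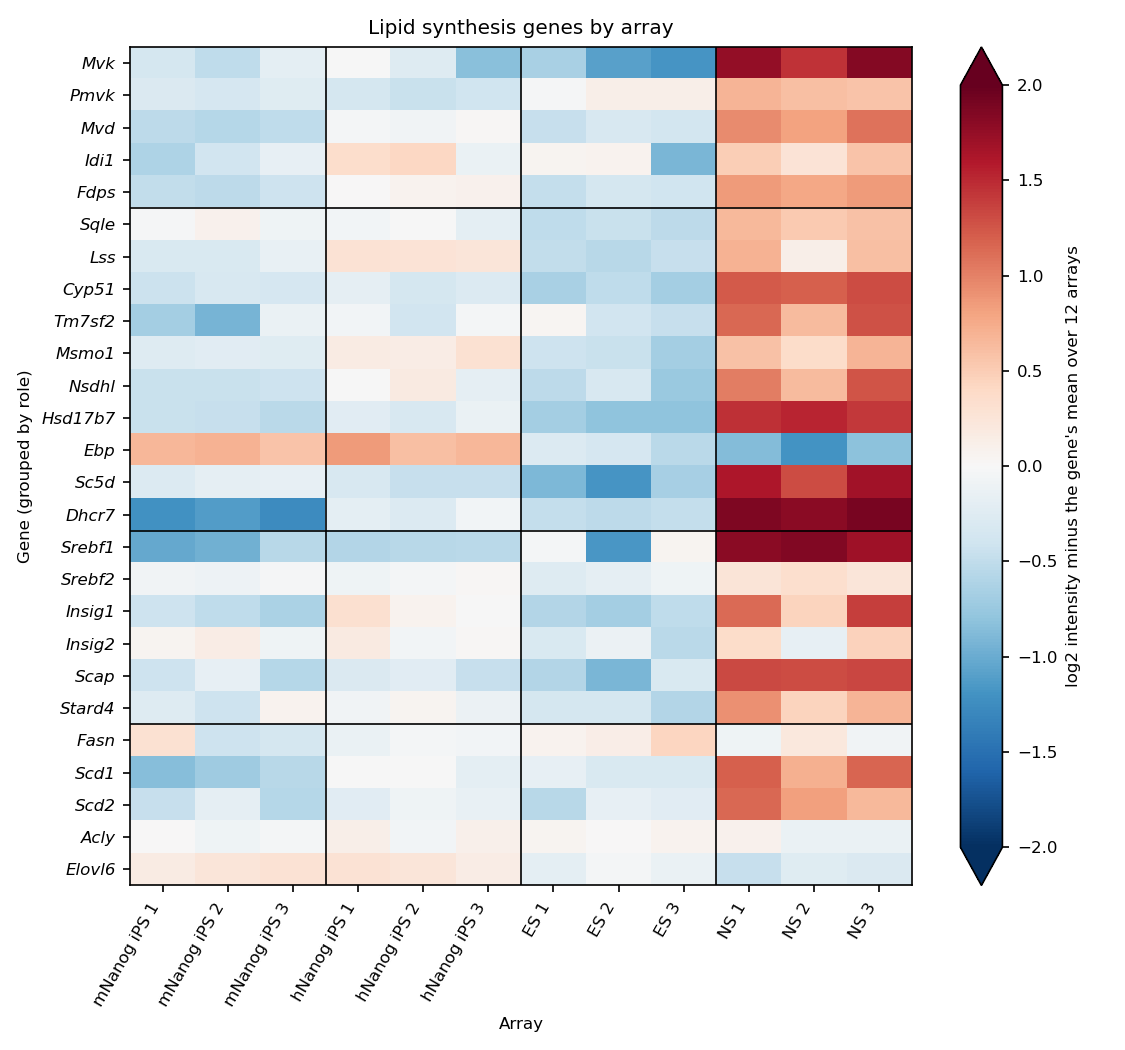
Heat map of 26 genes (rows, grouped by role) on 12 arrays (columns), coloured by log2 intensity minus the gene's mean over the 12 arrays. The NS columns are red in most rows, while Ebp and Elovl6 are blue there and Acly and Fasn are pale throughout.

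**Figure D2:**
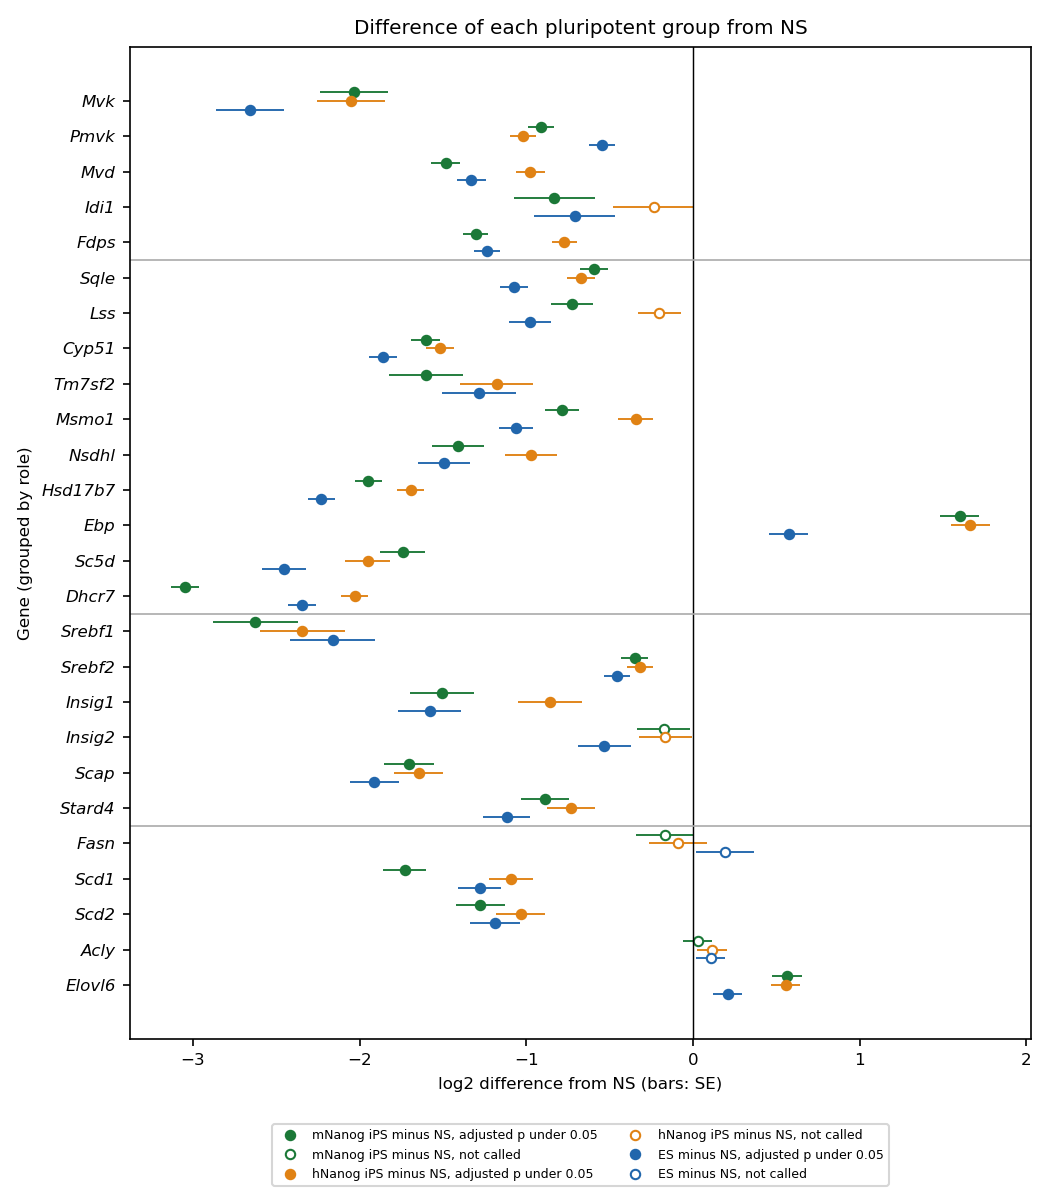
Log2 difference from NS of each gene in mNanog iPS, hNanog iPS and ES (x axis; bars are SE from limma, 3 samples per group; filled points have an adjusted p under 0.05). Points lie left of 0 except for Ebp, Elovl6, Acly and, in ES, Fasn, and Dhcr7 in mNanog iPS lies farthest left, at -3.05.

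All 5 measured genes of the mevalonate steps were lower than in NS in mNanog iPS and in ES, and 4 of 5 in hNanog iPS. Mvk, the kinase that phosphorylates mevalonate, read 7.43, 7.12 and 7.51 on the NS arrays. Its log2 intensity was 5.32, 5.17 and 5.48 on the mNanog iPS arrays, 5.67, 5.41 and 4.84 in hNanog iPS, and 5.03, 4.58 and 4.5 in ES. NS stood above every other array, and Mvk was detected on 1 mNanog iPS array, 2 hNanog iPS arrays and no ES array. The log2 difference from NS was -2.04 ± 0.20 (SE) in mNanog iPS (adjusted p = 1.4e-06, limma) and -2.05 ± 0.20 in hNanog iPS (adjusted p = 1.3e-06, limma), sizes that include arrays on which Mvk was not detected. In ES, where it was not well above background, Mvk was at least 3.4-fold lower than in NS (adjusted p = 1e-07, limma). That bound sets the mean of the NS arrays against the lowest signal that counted as detected on each ES array.

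Mvd, which decarboxylates the pathway's diphosphate to isopentenyl pyrophosphate, read 10.18, 10.04 and 10.31 in NS. It read 8.71, 8.66 and 8.72 on the mNanog iPS arrays, 9.19, 9.17 and 9.26 in hNanog iPS, and 8.77, 8.91 and 8.87 in ES. NS was highest, hNanog iPS lay between, and the groups did not overlap: Mvd differed from NS by -1.48 ± 0.09, -0.98 ± 0.09 and -1.33 ± 0.09 in mNanog iPS, hNanog iPS and ES. Fdps, the synthase that joins isoprene units into farnesyl pyrophosphate, followed the same order. It read 13.52, 13.44 and 13.53 in NS, 12.18, 12.15 and 12.25 on the mNanog iPS arrays, 12.68, 12.74 and 12.76 in hNanog iPS, and 12.20, 12.31 and 12.28 in ES. The Fdps differences from NS were -1.30, -0.77 and -1.24 (SE 0.08 each). The other Fdps probe gave -1.16 in mNanog iPS and -0.62 in ES, both called, and -0.03 ± 0.10 in hNanog iPS (adjusted p = 0.8, limma).

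Pmvk, the next kinase after Mvk, had group means of 8.57 in NS, 8.02 in ES, 7.66 in mNanog iPS and 7.55 in hNanog iPS, with SDs of 0.04 to 0.09. It fell by 0.91, 1.02 and 0.55 on the log2 scale in mNanog iPS, hNanog iPS and ES relative to NS. Idi1, which isomerises isopentenyl pyrophosphate, was dim and detected on 1 mNanog iPS, 2 hNanog iPS, 2 ES and 3 NS arrays. Its mean was 6.15 in NS, 5.91 in hNanog iPS, 5.44 in ES and 5.32 in mNanog iPS. Idi1 was called lower in mNanog iPS (-0.83 ± 0.24, adjusted p = 0.008, limma) and in ES (-0.71 ± 0.24, adjusted p = 0.019, limma). Without ES replicate 3 the ES difference was -0.38 and was not called (adjusted p = 0.075, limma). It was also not called without NS replicate 1 or without NS replicate 3 (adjusted p = 0.051 and 0.061, limma). In hNanog iPS the difference was -0.24 ± 0.24, with a 95% interval from -0.77 to 0.30.

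Of the 10 measured genes between squalene and cholesterol, 9 were lower than in NS in mNanog iPS and in ES and 8 in hNanog iPS, while Ebp was higher in all 3. Dhcr7, the reductase that makes cholesterol in the last step of the Kandutsch-Russell branch, showed the largest difference in mNanog iPS. It read 10.05, 9.98 and 10.07 in NS, 6.97, 7.06 and 6.93 on the mNanog iPS arrays, 7.98, 7.91 and 8.13 in hNanog iPS, and 7.71, 7.65 and 7.71 in ES. The 4 groups did not overlap, with NS highest and mNanog iPS lowest. Dhcr7 differed from NS by -3.05 ± 0.08 in mNanog iPS (8.27-fold lower, adjusted p = 5.3e-12, limma), -2.03 ± 0.08 in hNanog iPS and -2.34 ± 0.08 in ES.

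Hsd17b7 works in the removal of methyl groups from sterols. By its brighter probe it read 11.14, 11.19 and 11.09 in NS, 9.23, 9.22 and 9.14 on the mNanog iPS arrays, 9.46, 9.35 and 9.54 in hNanog iPS, and 9.0, 8.87 and 8.87 in ES. NS was far above the rest, at differences of -1.95, -1.69 and -2.23 (SE 0.08 each) in mNanog iPS, hNanog iPS and ES. A dimmer Hsd17b7 probe, detected on 1 mNanog iPS array, 3 hNanog iPS arrays, no ES array and 3 NS arrays, gave other values. It differed from NS by -0.18 ± 0.16 in mNanog iPS (adjusted p = 0.34, limma) and by 0.54 ± 0.16 in hNanog iPS (adjusted p = 0.0094, limma), the opposite direction. In ES it was called lower (adjusted p = 0.037, limma), with no size given because no ES array detected it. Where either probe lies in the transcript was not examined here.

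Sc5d, a sterol desaturase that acts just before Dhcr7, read 7.97, 7.66 and 8.03 in NS. It read 6.08, 6.16 and 6.19 on the mNanog iPS arrays, 6.03, 5.89 and 5.89 in hNanog iPS, and 5.45, 5.17 and 5.69 in ES, where 1 of 3 arrays detected it. ES was lowest and NS highest, and the differences from NS were -1.74, -1.95 and -2.45 (SE 0.13 each) in mNanog iPS, hNanog iPS and ES. Sqle, the epoxidase whose step limits flux from squalene, read 12.86, 12.73 and 12.80 in NS, 12.20, 12.30 and 12.13 on the mNanog iPS arrays, 12.16, 12.21 and 12.01 in hNanog iPS, and 11.71, 11.77 and 11.70 in ES. Both Sqle probes were called lower in each comparison with NS, the brighter by -0.59, -0.67 and -1.07 (SE 0.08 each).

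Lss, the cyclase that forms lanosterol, read 10.85, 10.28 and 10.76 in NS by its brighter probe. It read 9.86, 9.86 and 10.01 on the mNanog iPS arrays, 10.45, 10.44 and 10.40 in hNanog iPS, and 9.66, 9.61 and 9.69 in ES. hNanog iPS overlapped NS, at a difference of -0.20 ± 0.13 (95% interval from -0.48 to 0.08), whereas mNanog iPS and ES lay below NS by 0.72 and 0.98 and were called. Without NS replicate 2 the hNanog iPS difference was -0.38 and was called (adjusted p = 0.0018, limma). The other Lss probe was detected on at most 1 array of any group, and no direction is read from it.

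Msmo1, an oxidase that acts with Nsdhl and Hsd17b7 on the sterol's methyl groups, read 12.46, 12.24 and 12.55 in NS. It read 11.62, 11.64 and 11.63 on the mNanog iPS arrays, 12.04, 12.01 and 12.17 in hNanog iPS, and 11.45, 11.42 and 11.19 in ES. hNanog iPS lay between NS and the other groups, with a difference from NS of -0.34 ± 0.10 (adjusted p = 0.0087, limma) against -0.79 ± 0.10 in mNanog iPS and -1.06 ± 0.10 in ES. Cyp51, which removes a methyl group from lanosterol, had means of 10.78 ± 0.05 (SD) in NS, 9.26 ± 0.08 in hNanog iPS, 9.18 ± 0.07 in mNanog iPS and 8.92 ± 0.09 in ES. Its differences from NS were -1.60, -1.51 and -1.86 in mNanog iPS, hNanog iPS and ES (SE 0.08 each). Nsdhl, a dehydrogenase, was lower at all 4 of its probes in every comparison with NS, from -0.97 at the brightest probe in hNanog iPS to -2.23 at the dimmest in mNanog iPS. Tm7sf2, a sterol reductase, had a mean of 7.31 ± 0.34 in NS and means of 5.71 to 6.14 in the other groups. It was called lower in all 3 (-1.60, -1.18 and -1.28 in mNanog iPS, hNanog iPS and ES). Only 1 of 3 mNanog iPS arrays detected Tm7sf2, so the size there includes arrays on which it was not detected.

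Ebp, the sterol isomerase that moves a ring double bond, ran against the other enzymes of its route. It read 9.32, 8.99 and 9.36 in NS, 9.90, 9.84 and 9.65 in ES, 10.84, 10.88 and 10.75 in mNanog iPS, and 11.04, 10.79 and 10.84 in hNanog iPS. NS was lowest and both iPS groups highest, without overlap between iPS, ES and NS. Ebp was higher than in NS by 1.60 ± 0.12 in mNanog iPS (3.03-fold, adjusted p = 6.5e-08, limma), 1.67 ± 0.12 in hNanog iPS (3.17-fold, adjusted p = 4.4e-08, limma) and 0.57 ± 0.12 in ES (adjusted p = 0.00066, limma). The ES difference was 0.19 (adjusted p = 0.69, limma) with median scaling of the arrays and 0.27 (adjusted p = 0.055, limma) with cyclic loess, and was not called with either.

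**Figure D3:**
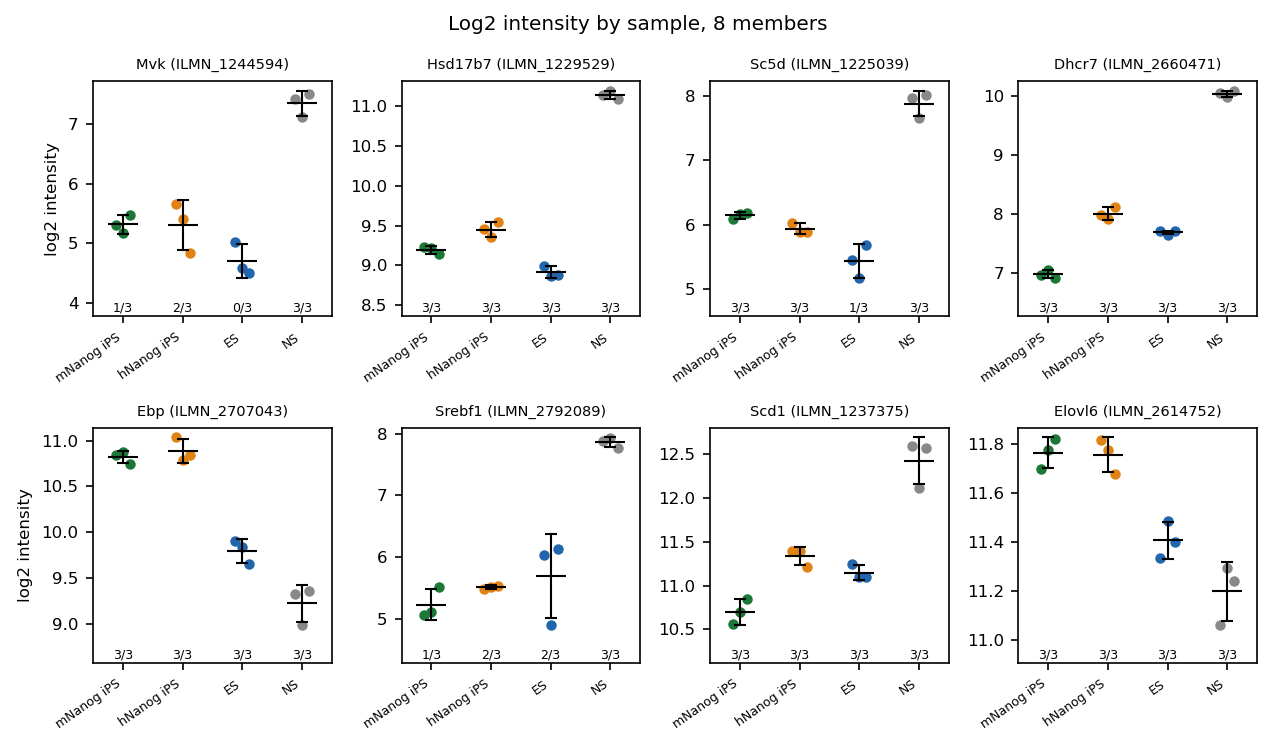
Log2 intensity of 8 genes by sample in the 4 groups; points are samples, the black bar and whiskers are the group mean and SD, and the fraction under each group is the number of its arrays that detected the probe. NS is highest for Mvk, Hsd17b7, Sc5d, Dhcr7, Srebf1 and Scd1 and lowest for Ebp and Elovl6.

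Among the regulators, the 2 SREBP genes differed in size of change. Srebf1, which encodes the SREBP tied mainly to fatty acid synthesis, read 7.88, 7.93 and 7.77 in NS. It read 5.06, 5.12 and 5.52 on the mNanog iPS arrays, 5.49, 5.52 and 5.54 in hNanog iPS, and 6.04, 4.91 and 6.14 in ES. NS stood clear of all 9 other arrays, of which 5 detected Srebf1. The differences from NS were -2.63, -2.34 and -2.16 (SE 0.25 each) in mNanog iPS, hNanog iPS and ES, with adjusted p of 1e-06, 3e-06 and 6.4e-06 (limma). Srebf2, which encodes the SREBP tied mainly to cholesterol synthesis, read 9.30, 9.38 and 9.29 in NS by its brighter probe. It read 8.97, 8.94 and 9.02 on the mNanog iPS arrays, 8.96, 9.0 and 9.07 in hNanog iPS, and 8.78, 8.86 and 8.96 in ES. NS was again highest without overlap, and Srebf2 was called lower by 0.35, 0.32 and 0.46 in mNanog iPS, hNanog iPS and ES. The other Srebf2 probe gave -0.12, -0.02 and -0.08 (SE 0.11 each) and was not called in any comparison.

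Scap, the escort protein of SREBPs, read 8.16, 8.15 and 8.18 in NS by its brighter probe. It read 6.43, 6.68 and 6.28 on the mNanog iPS arrays, 6.55, 6.62 and 6.38 in hNanog iPS, and 6.27, 5.93 and 6.55 in ES. NS stood apart, and both Scap probes were called lower in each comparison with NS, the brighter by -1.70, -1.65 and -1.91 (SE 0.15 each). The dimmer Scap probe was detected on all 3 NS arrays, on 1 hNanog iPS array and on no mNanog iPS or ES array. Stard4, a carrier of sterols between membranes, had means of 10.66 ± 0.24 (SD) in NS, 9.92 ± 0.08 in hNanog iPS, 9.77 ± 0.25 in mNanog iPS and 9.54 ± 0.13 in ES. It was called lower than in NS by 0.73, 0.89 and 1.12 in hNanog iPS, mNanog iPS and ES.

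The Insig1 probes gave opposite results. By its brightest probe Insig1 read 9.67, 8.99 and 9.92 in NS, 8.12, 8.03 and 7.91 on the mNanog iPS arrays, 8.86, 8.62 and 8.53 in hNanog iPS, and 7.95, 7.86 and 8.03 in ES. NS was highest, and a further probe gave the same order, with means of 9.38, 8.66, 8.14 and 7.93 in NS, hNanog iPS, mNanog iPS and ES. The differences from NS at the brightest probe were -1.51, -0.86 and -1.58 (SE 0.19 each) in mNanog iPS, hNanog iPS and ES. The third probe was lowest in NS, at 5.98, 4.74 and 5.51, and lay between 6.54 and 7.5 on the other 9 arrays. Its differences from NS were 1.68, 1.48 and 1.34 (SE 0.30 each), with adjusted p of 0.00023, 0.00064 and 0.0014 (limma). No single direction can therefore be given for Insig1. Insig2, its relative, read 8.80, 8.26 and 8.89 in NS by its brighter probe, 8.48, 8.59 and 8.35 on the mNanog iPS arrays, 8.62, 8.39 and 8.45 in hNanog iPS, and 8.14, 8.32 and 7.90 in ES. All 3 groups overlapped NS, and this probe was called lower in ES alone (-0.53 ± 0.16, adjusted p = 0.0096, limma). Without NS replicate 2 it was called lower in mNanog iPS and hNanog iPS too, at -0.37 and -0.36. The dimmer Insig2 probe was called lower in mNanog iPS, hNanog iPS and ES, by 0.54, 0.50 and 0.69.

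**Figure D4:**
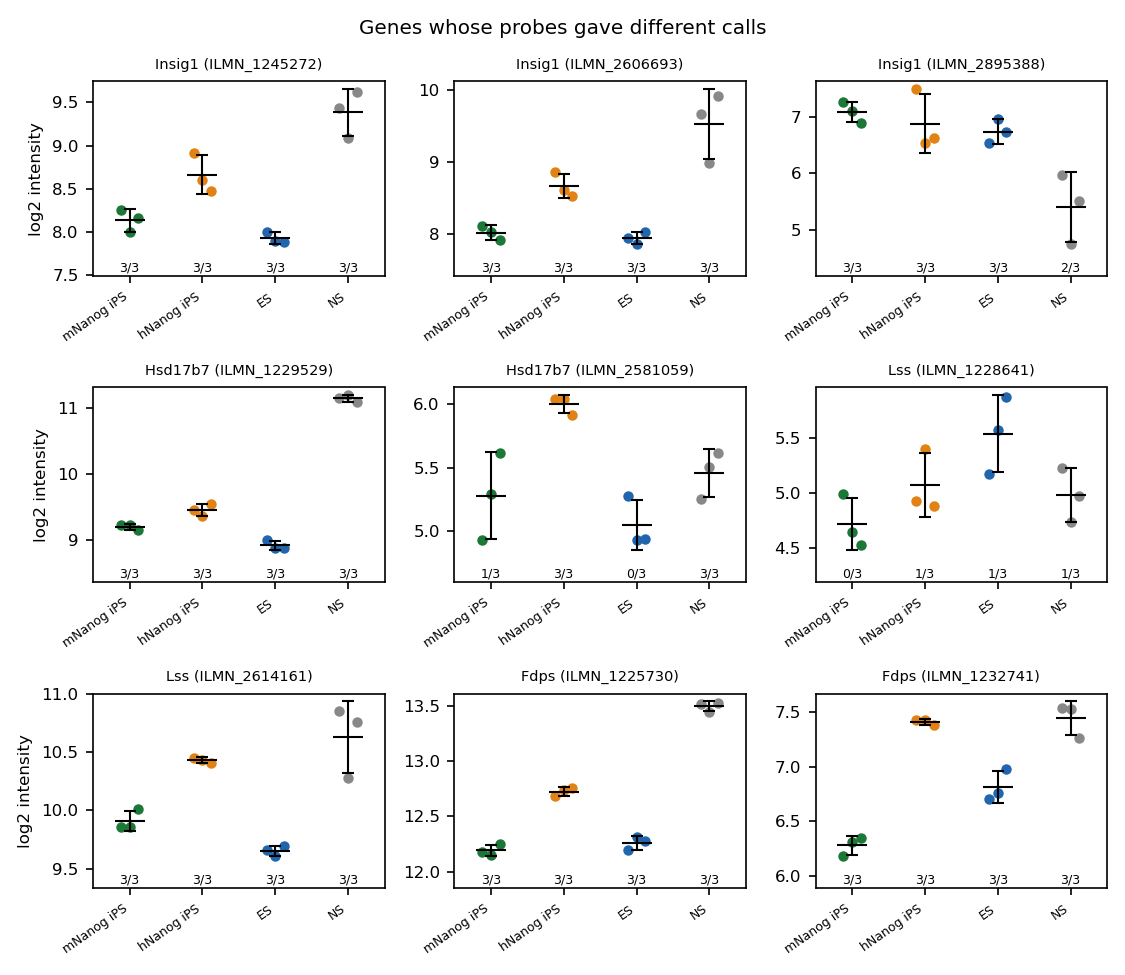
Log2 intensity by sample at each tested probe of Insig1, Hsd17b7, Lss and Fdps; points are samples, the bar and whiskers are the group mean and SD, and the fraction is the number of arrays that detected the probe. A pair of Insig1 probes is highest in NS and the third is lowest there.

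The genes of fatty acid synthesis divided. Of the 5 measured, Scd1 and Scd2 were lower than in NS in each group, Elovl6 was higher, and Acly and Fasn were not called. Scd1, a stearoyl-CoA desaturase that makes monounsaturated fatty acids, read 12.59, 12.12 and 12.57 in NS. It read 10.56, 10.70 and 10.84 on the mNanog iPS arrays, 11.40, 11.40 and 11.21 in hNanog iPS, and 11.25, 11.10 and 11.10 in ES. NS was highest and mNanog iPS lowest, and Scd1 differed from NS by -1.73, -1.09 and -1.28 (SE 0.13 each) in mNanog iPS, hNanog iPS and ES. Scd2, the desaturase prominent in brain, read 10.29, 9.97 and 9.80 in NS, 8.68, 8.97 and 8.58 on the mNanog iPS arrays, 8.91, 9.06 and 8.99 in hNanog iPS, and 8.60, 8.99 and 8.91 in ES. The 3 groups overlapped each other below NS, at Scd2 differences of -1.28, -1.03 and -1.19 (SE 0.15 each).

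Elovl6, which lengthens palmitate, had means of 11.20 ± 0.12 (SD) in NS, 11.41 ± 0.08 in ES, 11.76 ± 0.06 in mNanog iPS and 11.76 ± 0.07 in hNanog iPS. It was higher than in NS by 0.57 ± 0.09 in mNanog iPS and 0.56 ± 0.09 in hNanog iPS. The ES difference, 0.21 ± 0.09, sat at the threshold (adjusted p = 0.049, limma) and changed sign with median scaling or cyclic loess. Acly, which makes cytosolic acetyl-CoA from citrate, had means between 13.15 and 13.26 in all 4 groups. Its differences from NS were 0.03, 0.11 and 0.11 (SE 0.09 each), and the 95% intervals reached from -0.17 to 0.31. Fasn, the fatty acid synthase, was dim: 8 of 12 arrays detected it, with group means from 5.39 to 5.75 and differences from NS of -0.17, -0.09 and 0.19 (SE 0.17 each). Without mNanog iPS replicate 1, Fasn in mNanog iPS was called lower than in NS (-0.40, adjusted p = 0.016, limma) and than in ES (-0.59, adjusted p = 0.0054, limma).

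Set against ES, the hNanog iPS cells had the larger number of higher genes. In hNanog iPS 14 of the 26 genes were higher than in ES and 1 was lower, where the backgrounds were 15.1% and 13.9%. In mNanog iPS 7 were higher and 3 lower (backgrounds 17.7% and 18.4%). The median log2 difference from ES was 0.36 in hNanog iPS and 0.10 in mNanog iPS, against -0.01 and -0.03 over all genes. The mNanog iPS median was -0.02 when all probes of a gene were averaged and -0.06 with the dimmest probe of each gene, so its sign rests on the choice of probe. Both comparisons share the ES samples. Within the hNanog iPS count, 9 of the 10 genes from squalene to cholesterol and 3 of the 5 mevalonate genes were higher. The counts of higher and lower genes in hNanog iPS were 14 and 1 with brightness as a block, 10 and 1 on the brighter arrays alone, and 4 and 0 on the dimmer arrays alone, where hNanog iPS has 1 array. In mNanog iPS they were 8 and 3, 2 and 2, and 3 and 3. With median scaling 1 gene was called in hNanog iPS and 0 in mNanog iPS, and the median differences were 0.58 and 0.05 where those of all probes were 0.17 and -0.07. Without hNanog iPS replicate 1 the hNanog iPS count of higher genes was 8, and without ES replicate 3 the mNanog iPS count was 4.

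Ebp led both comparisons with ES. It was higher than in ES by 1.02 ± 0.12 in mNanog iPS (2.03-fold, adjusted p = 3e-05, limma) and by 1.09 ± 0.12 in hNanog iPS (2.13-fold, adjusted p = 2.7e-05, limma). All 6 iPS arrays read above all 3 ES arrays. Elovl6 (0.36 and 0.35), Sqle (0.48 and 0.40), Sc5d (0.71 and 0.50), Cyp51 (0.25 and 0.34) and Hsd17b7 (0.28 and 0.54) were also called higher in mNanog iPS and hNanog iPS. The dimmer Hsd17b7 probe, which no ES array detected, was called higher in hNanog iPS but not in mNanog iPS. Pmvk was called lower in both, by 0.36 and 0.47. Mvk passed the test in both comparisons (adjusted p = 0.035 and 0.047, limma), but no ES array and 1 mNanog iPS and 2 hNanog iPS arrays detected it, so no fold is given. The hNanog iPS arrays overlapped those of ES for Mvk, and that call was lost in most fits with 1 array left out. The mNanog iPS call was lost in some, such as without ES replicate 3 (adjusted p = 0.12, limma).

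Further genes were called higher than in ES in hNanog iPS. They were Lss (0.78 ± 0.13, adjusted p = 0.00075, limma), Insig1 by its brightest probe (0.72 ± 0.19), Msmo1 (0.72 ± 0.10), Nsdhl (0.52 ± 0.16), Fdps (0.46 ± 0.08), Mvd (0.35 ± 0.09) and Dhcr7 (0.31 ± 0.08). In mNanog iPS these genes gave 0.25, 0.07, 0.27, 0.09, -0.07, -0.16 and -0.70, of which the Dhcr7 value was called (adjusted p = 3.9e-05, limma). The other Fdps probe was called on both sides of ES. It gave 0.59 ± 0.10 in hNanog iPS (adjusted p = 0.0011, limma) and -0.53 ± 0.10 in mNanog iPS (adjusted p = 0.0017, limma). The third Insig1 probe gave 0.14 ± 0.30 in hNanog iPS and was not called. Scd1 was called lower than in ES in mNanog iPS (-0.45 ± 0.13, adjusted p = 0.02, limma) and gave 0.19 ± 0.13 in hNanog iPS. In some fits with 1 array left out, Scd1 lost this call. Insig1, Nsdhl and Dhcr7 likewise lost their hNanog iPS calls in some such fits. Srebf1, Srebf2, Insig2, Scap, Stard4, Fasn, Scd2, Acly, Idi1 and Tm7sf2 were not called against ES in either iPS group. Srebf1 had the widest of these 95% intervals, from -1.02 to 0.09 in mNanog iPS and from -0.74 to 0.38 in hNanog iPS. Without ES replicate 2, Srebf1 was called lower than in ES in both, by 0.86 and 0.57.

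**Figure D5:**
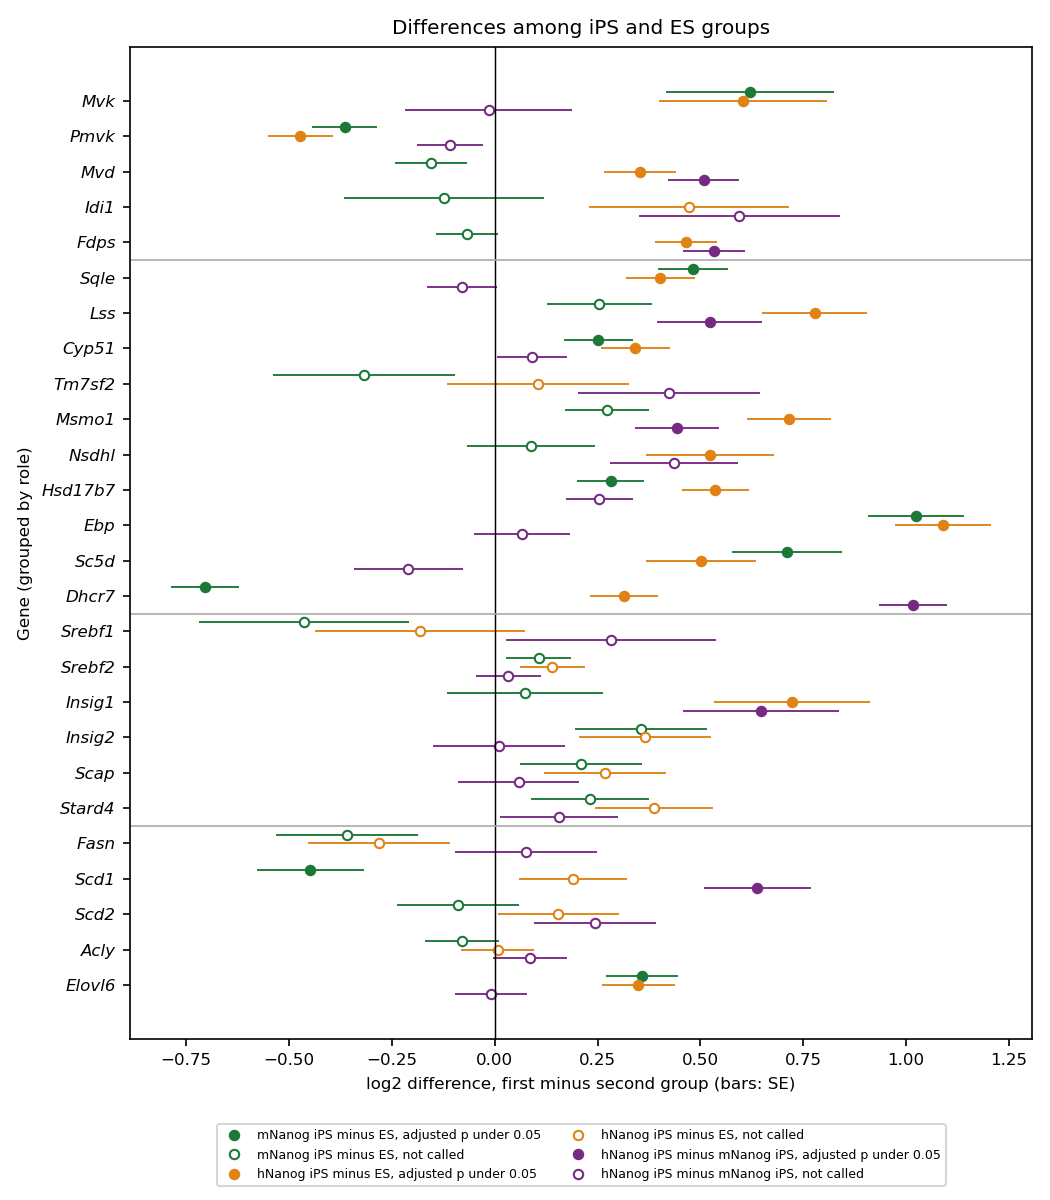
Log2 differences of each gene for mNanog iPS minus ES, hNanog iPS minus ES and hNanog iPS minus mNanog iPS (x axis; bars are SE from limma, 3 samples per group; filled points have an adjusted p under 0.05). Ebp lies near 1 in both comparisons with ES, and Dhcr7 lies at -0.70 in mNanog iPS and 0.31 in hNanog iPS.

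The iPS groups were then compared with each other. In hNanog iPS 7 of the 26 genes were higher than in mNanog iPS and 0 were lower, against backgrounds of 7.17% and 8.72%. The 7 were Dhcr7, Insig1, Scd1, Fdps, Lss, Mvd and Msmo1. Of the 26 differences 21 were above 0, beside 5357 of 10043 over all genes tested. For Dhcr7, Scd1, Fdps and Mvd the iPS groups also lay on opposite sides of ES, a pattern with hNanog iPS higher that 2.72% of genes tested met. The median was 0.20, where that of all genes was 0.02. With brightness as a block 8 genes were higher, on the brighter arrays alone 4, on the dimmer arrays alone 1, and with median scaling 1.

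Dhcr7 was 1.02 ± 0.08 higher on the log2 scale in hNanog iPS than in mNanog iPS (2.02-fold, adjusted p = 4e-06, limma), and all 3 hNanog iPS arrays read above all 3 mNanog iPS arrays. It kept this call in every setting tried, at 1.02 on the brighter arrays alone and 1.11 on the dimmer. Scd1 differed by 0.64 ± 0.13 (adjusted p = 0.0061, limma), Fdps by 0.53 ± 0.08 (adjusted p = 0.00049, limma), Mvd by 0.51 ± 0.09 and Msmo1 by 0.44 ± 0.10. The other Fdps probe gave a larger difference, 1.13 ± 0.10. Lss by its brighter probe (0.52 ± 0.13, adjusted p = 0.017, limma) and Insig1 by its brightest (0.65 ± 0.19, adjusted p = 0.041, limma) were nearer the threshold. Without hNanog iPS replicate 1 neither was called (adjusted p = 0.057 for Lss and 0.15 for Insig1, limma). Insig1 also lost its call in most other fits with 1 array left out. The third Insig1 probe gave -0.21 ± 0.30. Nsdhl was called at 3 of its 4 probes (0.50 to 0.76) but not at its brightest (0.44 ± 0.16, adjusted p = 0.09, limma). The dimmer Hsd17b7 probe was called as well (0.72 ± 0.16), while the brighter gave 0.25 ± 0.08 (adjusted p = 0.062, limma). Ebp, Mvk, Sqle, Elovl6 and Insig2 differed by -0.08 to 0.07, and the widest of their 95% intervals, that of Mvk, ran from -0.46 to 0.43. Fibroblast markers were higher in mNanog iPS, as given above, and their part in these differences was not tested.

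Across the 4 groups, 22 of the 26 genes had their highest mean in NS, 13 had their lowest mean in ES and 9 in mNanog iPS. The shares of all genes tested with these orders were not counted. Between mNanog iPS and ES 16 of the 26 genes were not called, so which of these groups was lowest is often unsettled. Only Pmvk had its lowest mean in hNanog iPS. Ebp, Acly and Elovl6 were lowest in NS, though the Acly groups did not differ beyond their spread.

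Neighbouring pathways were read from lists of other genes. Of 15 measured genes among 24 further synthesis genes, 9 were lower and 5 higher than in NS for mNanog iPS, 10 and 3 in hNanog iPS, and 11 and 3 in ES, where 38.3%, 37.3% and 36.9% of all genes were lower and 39.3%, 40.7% and 40.7% higher. Fads2, the desaturase that starts polyunsaturated fatty acid synthesis, differed from NS by -4.06, -3.06 and -3.13 (SE 0.12 each) in mNanog iPS, hNanog iPS and ES. Fads1, a later desaturase of that route, differed by -2.54, -2.28 and -2.35, and Mid1ip1, which activates acetyl-CoA carboxylase, by -3.33, -2.91 and -3.05. Acacb, the mitochondrial acetyl-CoA carboxylase, was not detected on any NS array and was higher by at least 2.39-fold in mNanog iPS, by at least 2.45-fold in hNanog iPS and by at least 6.28-fold in ES.

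Of 11 measured genes among 20 for uptake, transport, storage and efflux, 8 were lower than in NS in each group and 3, 3 and 2 were higher in mNanog iPS, hNanog iPS and ES, beside those same shares of all genes. Vldlr, a lipoprotein receptor, differed from NS by -2.98, -4.38 and -4.57 (SE 0.18 each). Apoe, the main lipoprotein component made in brain, was higher than in NS by 2.81 in mNanog iPS, 2.72 in hNanog iPS and 1.59 in ES (SE 0.13 each). Against ES, 6 of these 11 genes were higher and 0 lower in mNanog iPS (all genes 17.7% and 18.4%), and 3 and 0 in hNanog iPS (all genes 15.1% and 13.9%). Cav1, the caveolae protein, was detected on all 3 mNanog iPS arrays and on no ES or hNanog iPS array, and mNanog iPS exceeded ES by at least 4.07-fold and hNanog iPS by at least 4.29-fold. Cav1 is also abundant in fibroblasts, whose markers were higher in the same samples, and their part was not tested.

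Of 10 measured genes for SREBP processing and regulation, 3 were higher and 2 lower than in NS for mNanog iPS, 5 and 3 in hNanog iPS, and 4 and 2 in ES. The 5 higher in hNanog iPS lie a little above the share of all genes, and the other counts lie near or below it. Those shares were 39.3% to 40.7% higher and 36.9% to 38.3% lower. Ppargc1b, a coactivator of SREBPs, was higher by 1.51, 1.81 and 1.59 (SE 0.15 each). Of 12 measured genes of fatty acid oxidation, 6 were lower in each group and 3, 4 and 4 were higher in mNanog iPS, hNanog iPS and ES, beside the same shares of all genes. The dehydrogenase of long-chain acyl-CoA, Acadl, differed from NS by -2.64, -2.67 and -3.11 (SE 0.16 each), and that of medium chains, Acadm, by 1.12, 0.72 and 1.20 (SE 0.08 each).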

How the data were processed

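RNA of 12 samples was amplified and labelled with a TotalPrep kit for Illumina bead arrays, per the labels. The authors deposited linear intensity values, not normalized, for 45281 probes, each with its detection p-value. A second table the authors deposited holds 20513 probes and was read as log2 from its range, as an alternative. No label or header names the software behind either table.

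The steps in R 4.3.3 used limma 3.58.1: neqc (background inferred from the detection p-values, offset 16, quantile normalization), then lmFit and eBayes with 4 group means over the 12 arrays. A probe was tested if 3 or more arrays had its detection p-value below 0.01 (18185 probes, of which 15676 had 1 gene symbol), with Benjamini-Hochberg adjustment and a threshold of 0.05. The test was checked on simulated data with independent noise on each array. That noise lacks the brightness pattern of these arrays, so the check does not cover it. Gene symbols came from the platform annotation, which lists 17492 probes, 8 of them with several symbols. The probe of highest mean stood for each gene. Of the listed genes 9 had several, and the main disagreements among their probes are given. Errors are SE for differences and SD for levels. The number of arrays limits the precision.

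Values by sample are given for the 6 genes with the largest called change in each comparison and for Srebf1, Srebf2, Insig1, Insig2, Scd1 and Scd2; other genes are given by group, and at most 4 genes per further list. The genes and lists were chosen with earlier results of these data known. Promoter motifs were searched with Python 3.11.15. Alternatives covered background correction, normalization, filter, probe, test, blocks and each array left out.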

Additional observations from a re-analysis of the deposited data

Results flagged for a closer look

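For 4 genes the iPS groups lay on opposite sides of ES while the difference between the iPS groups itself passed the test (limma, 3 samples per group, adjusted over all probes). All 4 were higher in hNanog iPS, a pattern met by 2.72% of genes tested. At the probes used, 1 of the sides is not called for Scd1, Fdps and Mvd. The arrays of Fdps in mNanog iPS and of Scd1 in hNanog iPS overlap those of ES there. The comparisons with ES share the ES samples.

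Dhcr7 was higher in hNanog iPS than in mNanog iPS by 1.018 (adjusted p = 4e-06, limma), and both of its differences from ES were called, at 0.31 and -0.70. The hNanog iPS side was not called without hNanog iPS replicate 3 or without ES replicate 2 (adjusted p = 0.062 and 0.053, limma). Scd1 was higher by 0.638 (adjusted p = 0.0061, limma), with 0.19 and -0.45 relative to ES, of which the second was called. That Scd1 call was lost without mNanog iPS replicate 1 or 2 or without ES replicate 1 (adjusted p = 0.073, 0.051 and 0.065, limma). Fdps was higher by 0.532 (adjusted p = 0.00049, limma), with 0.46 and -0.07, and Mvd by 0.508 (adjusted p = 0.0019, limma), with 0.35 and -0.16, of which the hNanog iPS values were called. The other Fdps probe gave 0.59 and -0.53 relative to ES, both called. For each of the 4 genes all 3 hNanog iPS arrays read above all 3 mNanog iPS arrays. The genes were picked by that same difference on the same arrays, so the lack of overlap adds no support. On the brighter arrays alone the 4 differences between the iPS groups were 1.02, 0.56, 0.46 and 0.46, and on the dimmer arrays alone 1.11, 0.59, 0.59 and 0.57, in the order Dhcr7, Scd1, Fdps and Mvd. Dhcr7 was called in both of these fits, Scd1 on the brighter arrays, and Fdps and Mvd in neither.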

How the results depend on the processing

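The number of probes called depended least on the processing in the comparisons with NS, and most in those among the pluripotent groups. The share of higher calls and the median of all probes did not follow that order. Median scaling in place of quantile normalization lowered the probes called from 13606, 13695 and 13671 to 9128, 8870 and 8788 (mNanog iPS, hNanog iPS and ES against NS), from 5968 and 4752 to 927 and 730 (mNanog iPS and hNanog iPS against ES), and from 2495 to 311 (between the iPS groups). It moved the share of higher calls from 52%, 53.9%, 54%, 48.6%, 52.6% and 46.8% to 30.3%, 42.7%, 32.5%, 65.3%, 76% and 40.2%, and cyclic loess moved the last to 35.8%. The median of all probes under median scaling was -0.33, -0.05, -0.24, -0.07, 0.17 and 0.26, against 0.08, 0.12, 0.11, -0.03, 0.00 and 0.03. Listed genes lower than NS then numbered 21, 14 and 22, and higher 1, 1 and 0. Against ES, 0 were called in mNanog iPS (higher or lower) and 1 higher and 0 lower in hNanog iPS (Ebp), and 1 between the iPS groups (Dhcr7). The cause was not tested.

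The count of 2 genes higher in ES than in NS was 0 with cyclic loess, and 1 without a filter on dim probes, with only the 2 groups fitted, with either kind of block, and on the brighter or dimmer arrays alone. The brighter arrays alone called 3849 probes for mNanog iPS against ES, and the dimmer ones 3800, 1402 (hNanog iPS against ES) and 533 (between the iPS groups). Listed genes higher were 2 and 3 in mNanog iPS against ES, 4 (with 0 lower) in hNanog iPS against ES on the dimmer arrays, 4 and 1 between the iPS groups, and 1 in hNanog iPS against NS on the dimmer arrays. These fits hold fewer samples.

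Reading each gene from its dimmest tested probe gave 18, 16 and 19 genes lower than NS (medians -0.89, -0.63 and -1.01), 4 higher than NS in hNanog iPS and 4 in ES, and 6 lower than ES in mNanog iPS. It turned Insig1 to 1.68, 1.48 and 1.34 against NS and to -0.21 between the iPS groups, Hsd17b7 to 0.54 (hNanog iPS against NS), Lss to 0.56 (ES against NS), -0.82 and -0.47 (mNanog iPS and hNanog iPS against ES; that Lss probe was detected on at most 1 array per group, so no direction is read from it), and Nsdhl to -0.51 (mNanog iPS against ES). Elovl6 in ES against NS turned to -0.034 with median scaling and -0.064 with cyclic loess, and Acly in mNanog iPS against NS to -0.22 (adjusted p = 0.048, limma) with cyclic loess.

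Leaving out each array in turn gave 21 to 22, 19 to 21 and 21 to 22 genes lower than NS, and 1 to 2 higher in ES. It gave 4 to 10 higher and 2 to 4 lower in mNanog iPS against ES, 8 to 16 higher and 1 to 2 lower in hNanog iPS against ES, and 5 to 8 higher between the iPS groups.

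Samples that share a replicate number correlated at -0.507 to 0.374 after group means were removed (18 pairs), and the main fit did not pair them. Array brightness differs within some of these pairs and could mask a pairing, so the correlations do not exclude one. Pairs of like brightness correlated at a median of 0.30 (25 of 26 above 0.1) and pairs of unlike brightness at -0.25 (0 of 28), and the report gives the counts with brightness as a block. With the replicate block the probes called were 13414, 13506, 13451, 5516, 4251 and 2095, and the listed genes higher and lower 2 and 21, 2 and 19, 1 and 22, 6 and 3, 13 and 1, and 7 and 0.

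Dim probes limit Mvk, Idi1, Srebf1, Fasn, Sc5d and Tm7sf2, each detected on fewer than 12 arrays.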
